A study of Mus musculus with 6 samples.

Results

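Chemokine ligands and their receptors were measured in brown adipose tissue (BAT) of 6 male wild type C57BL/6J mice, 3 fed a low-fat diet (LFD) and 3 fed a high-fat diet labelled 45% (HFD), from 6 to 10 weeks of age. BAT is the heat-producing fat depot, here the right interscapular pad, and RNA was sequenced after removal of ribosomal RNA. The mice sequenced were those of greatest, medium and least fat mass in each group, so their spread is that of chosen animals, and the diets came from different makers, so they differed in more than fat content. The genes were found by their names: a gene was taken when its symbol was Ccl, Cxcl, Xcl or Cx3cl (ligands) or Ccr, Cxcr, Xcr or Cx3cr (receptors) followed by a number, and 63 of the 47729 genes in the files matched. The family itself was selected on diet differences already measured in several of its members, so the diet values are given as a description.

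Chemokines are small secreted or membrane-tethered proteins that direct the movement of leukocytes, and they are grouped into CC, CXC, C and CX3C classes by the spacing of conserved cysteines. Their receptors couple to inhibitory G proteins and sit mainly on leukocytes, and a receptor often binds several ligands. In adipose tissue, Ccl2 and its receptor Ccr2 are best known for the entry of monocytes, the blood precursors of macrophages.

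The 63 genes comprised 45 ligand and 18 receptor entries under 57 symbols, since 5 symbols (Ccl19, Ccl21a, Ccl21b, Ccl21c and Ccl27a) occurred in 11 entries, on chromosome 4 or unplaced scaffolds. No read was counted in any mouse for 5 ligand entries: Ccl20, Ccl26, Ccl27b and a copy each of Ccl19 and Ccl27a. A further 10 ligand and 4 receptor entries had too few reads to be tested, among them Ccl1, Ccl17, Ccl28, Ccr4, Ccr6, Ccr8 and Cxcr1, none of which exceeded 14 reads in a mouse. The remaining 30 ligands and 14 receptors were tested among 17668 genes, and 25 of the family had at least 10 reads in every mouse. Passing this filter can depend on the diet in which a gene is high, so counts over the tested genes do not describe the whole family. Levels between genes are compared in TPM, a transcript share that is scaled for gene length, and diets are compared on counts, as log2 CPM per mouse (counts scaled to library size) and as log2 fold changes of HFD over LFD with their standard errors (SE).

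Total rounded counts were 17156991 to 21603487 per mouse. The fat cell genes Adipoq and Plin1 were at 172.8 TPM or more in every mouse, whereas Ucp1, the uncoupling protein of brown fat, was at 796 to 4021 TPM in HFD-fed and 11.03 to 443 TPM in LFD-fed mice. These genes belong to a list of 10 brown adipocyte markers, of which 8 had a log2 fold change above 0, against 45.6% of all genes. The median of the list was 1.68, while Adipoq (-1.19, SE 0.76) and Plin1 (-0.78, SE 0.84) were below 0. All 10 skeletal muscle marker genes had every HFD-fed mouse below every LFD-fed mouse in log2 CPM, against 9.23% of all genes. Their summed levels were 6.82 to 167 TPM in HFD-fed and 1646 to 11240 TPM in LFD-fed mice. Whether muscle in the LFD samples contributed to any value below was not tested. In bulk tissue, a larger number of cells of a type cannot be told apart from more RNA per cell.

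The ligands made most of the chemokine RNA, and a few of them made most of the ligand RNA. Summed over all 45 ligand entries, levels were 870, 1585 and 3185 TPM in HFD replicates 1 to 3 and 394, 1783 and 1918 TPM in LFD replicates 1 to 3. The 18 receptors summed to 106, 182.5 and 369.6 TPM in the HFD-fed mice and to 22.2, 143.5 and 196.8 TPM in the LFD-fed mice. The diets overlapped in both sums: HFD replicate 3 was the highest and LFD replicate 1 the lowest mouse in each. The log2 ratio of the mean log2 sums was 0.57 for ligands and 1.17 for receptors, and without LFD replicate 1 these were -0.18 and 0.20. Ligand TPM per receptor TPM was 8.21 to 8.69 in the HFD-fed mice and 9.74 to 17.7 in the LFD-fed mice, without overlap.

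**Figure D1:**
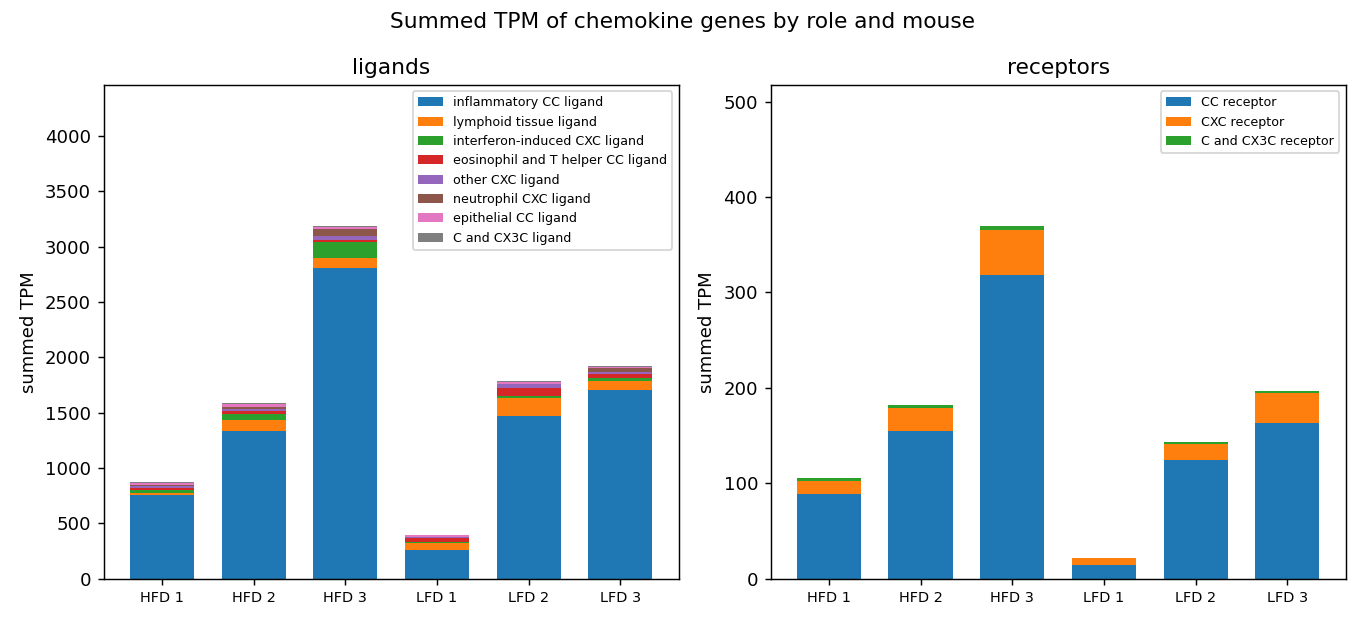
Summed TPM of ligands (left) and receptors (right) in each mouse, stacked by role, with both axes starting at 0 and on different scales. Inflammatory CC ligands made up most of the ligand sum in every mouse, with 2806 TPM in HFD replicate 3 and 262 TPM in LFD replicate 1, and the bars of the diets overlap in height.

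Ccl6 was the most abundant ligand, at a mean of 608 TPM ± 334 (SD, n = 6 mice), ahead of Ccl8 at 289 TPM ± 263 and Ccl9 at 262 TPM ± 162. Ccl6 and Ccl9, rodent chemokines that act through Ccr1, together held 47.3% to 62.7% of the ligand TPM in HFD-fed and 39.7% to 65.9% in LFD-fed mice. Ccl6 exceeded Ccl8 in 5 of 6 mice and Ccl8 exceeded Ccl9 in 2 of 6, so the order of the last pair differed between mice. Next came the monocyte attractants Ccl2 at 94.0 TPM ± 134 and Ccl7 at 82.5 TPM ± 104, whose order was even, with Ccl2 higher in 3 of 6 mice, and then Cxcl12 at 52.0 TPM ± 24.8. This order by the mean of all mice hides the diets: Ccl7 exceeded Cxcl12 in 3 of 6 mice, and in LFD-fed mice Cxcl12 (mean 52.1 TPM), Cxcl13 (40.3 TPM) and Ccl11 (36.5 TPM) exceeded Ccl7 (26.8 TPM) and Ccl2 (23.0 TPM). Among the receptors named here, Ccr2 at 56.2 TPM ± 35.0 was above Cxcr4 in 6 of 6 mice. Cxcr4 at 15.9 TPM ± 11.7 and Ccr1 at 14.8 TPM ± 14.1 followed, Cxcr4 being higher in 4 of 6 mice. Cxcr2 at 4.66 TPM ± 3.42 and Cx3cr1 at 1.92 TPM ± 1.00 came next.

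No ligand or receptor passed the thresholds of the study (a log2 fold change beyond 1.5 in size at an adjusted p under 0.01) in edgeR's quasi-likelihood test, and the same was true of all genes, of which 0.0% were called higher and 0.0% lower. The smallest adjusted p of the family was 0.174, for Cx3cl1, and of all genes 0.170. Without adjustment, 13 of the 44 were higher at p under 0.05, against 3.86% of all genes tested, and 2 were lower (Cxcl13 and Ccl11), against 6.62% of all genes. The count of 13 was 8 without HFD replicate 3 and 8 without LFD replicate 2. In the log2 CPM of the mice, 19 of the 44 genes had every HFD-fed mouse above every LFD-fed mouse, against 6.72% of all genes, and 2 (Cxcl13 and Ccl24) had every HFD-fed mouse below, against 9.23%. In TPM, 8 were fully above, against 1.65% of all genes, and 4 (Ccl11, Ccl24, Cxcl13 and Cxcl14) fully below, against 11.6%. The median difference of all tested genes between the diets was 0.00 in log2 CPM and -0.18 in log2(TPM + 1). Between single mice the scales could differ by more than this median. Ccl2 in HFD replicate 1 and LFD replicate 3 was at 5.26 and 4.64 log2 CPM but at 39.8 and 55.2 TPM. Mitochondrial genes took 22.7% and 3.87% of counts in these mice, and their part was not tested.

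DESeq2, the tool the study used, called 6 of the family higher (Ccl4, Ccl5, Cx3cl1, Cxcl9, Cxcl10 and Xcl1), against 0.531% of all genes, and 1 lower (Cxcl13), against 1.53%. When same-numbered mice were compared in pairs, with the replicate number as a block in edgeR, the study's thresholds still called 0.0% of all genes in either direction and no member. The labels do not say that these mice were matched. The pairing was chosen on the same expression values that the block then tested, so its p-values are a description only. At an adjusted p under 0.05, edgeR with the block had Ccl2 (0.0224), Cxcl10 (0.0306) and Ccl12 (0.0411) higher, against 0.164% of all genes, and Cxcl13 (0.0207) lower, against 0.877%. Without adjustment the block gave 23 higher, against 8.75% of all genes, and 2 lower (Cxcl13 and Ccl19), against 8.76%.

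The direction was mostly upward in ligands and in receptors. Of the tested ligands 23 of 30 had a log2 fold change above 0, and of the receptors 14 of 14, against 45.6% of all genes above 0 and 54.4% below. The 14 receptors include Cxcr2, at 0.00, which was -0.01 without mitochondrial genes. In log2 TPM, over genes above 0 in every mouse, 16 of 25 ligands and 13 of 14 receptors were above 0, where the median of all genes was -0.23. The median log2 fold change was 1.3 for ligands (-4.32 to 4.10) and 1.13 for receptors (0.00 to 1.77), and -0.05 over all genes. In all 3 same-numbered pairs, HFD was higher for 18 of 30 ligands and 11 of 14 receptors, against 21.1% of all genes, and lower for 4 ligands and 0 receptors, against 21.3%. Single mice stood out: HFD replicate 3 was the highest mouse for 16 of 30 ligands, compared with 19.5% of all genes, and LFD replicate 1 the lowest for 17 of 30 ligands and 13 of 14 receptors, compared with 31.8% of all genes. In LFD replicate 1 the 12 macrophage marker genes also summed lowest, to 667 TPM, compared with 2813 and 4658 TPM in the other LFD-fed mice and 2000 to 4117 TPM in HFD-fed mice. Their part in the chemokine values was not tested. Without LFD replicate 1, the median log2 fold change was 0.98 for ligands and 0.76 for receptors.

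**Figure D2:**
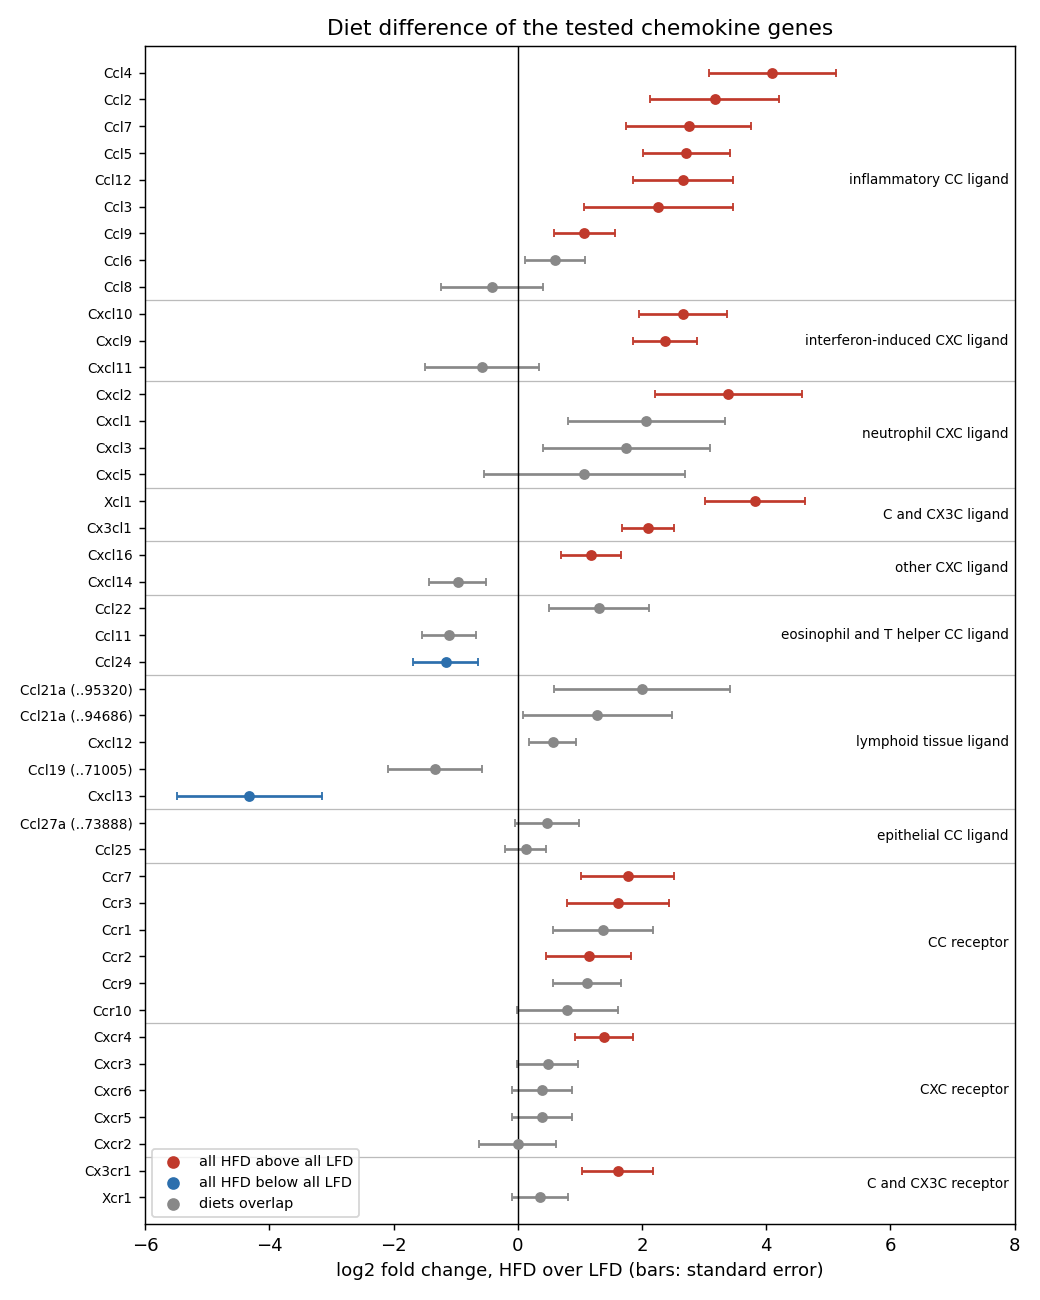
Log2 fold change of HFD over LFD with its SE for 43 tested genes, grouped by role, with copies told apart by the last digits of their identifier. Red genes had all HFD-fed mice above all LFD-fed mice in log2 CPM (18 genes), blue genes all below (2 genes), and grey genes overlapped.

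The ligands of Ccr2 were higher in every HFD-fed mouse in log2 CPM. Ccl2, the main attractant of monocytes (chr11:82035571-82037453), was at 39.8, 95.9 and 359 TPM in HFD replicates 1 to 3 and at 2.39, 11.3 and 55.2 TPM in LFD replicates 1 to 3. The diets differed by 3.17 on the log2 scale (SE 1.04; edgeR adjusted p = 0.363), a fold change of 8.99, and by 2.10 without HFD replicate 3 and 4.60 without LFD replicate 3. Every HFD-fed mouse was above every LFD-fed mouse in log2 CPM, but in TPM HFD replicate 1 lay below LFD replicate 3. Its neighbour Ccl7, which also draws monocytes, was at 45.1, 82.5 and 287 TPM in HFD-fed and 2.32, 14.3 and 63.8 TPM in LFD-fed mice (log2 fold change 2.75, SE 1.00). Ccl12, a mouse relative of Ccl2, was at 15.8, 24.1 and 112 TPM and at 2.41, 7.22 and 20.0 TPM (log2 fold change 2.66, SE 0.81). In both genes the diets were apart in log2 CPM and overlapped in TPM, again through HFD replicate 1 and LFD replicate 3. Without HFD replicate 3 and without LFD replicate 3 their log2 fold changes were 1.86 and 4.18 for Ccl7 and 1.59 and 3.44 for Ccl12. Ccl2 and Ccl7 together held 9.75% to 20.3% of all ligand TPM in HFD-fed mice and 1.20% to 6.21% in LFD-fed mice.

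Ccl4, Ccl5 and Ccl3 are made by T cells, NK cells and macrophages, and all 3 had the diets apart in log2 CPM. Ccl4 had the largest log2 fold change of the family, 4.10 (SE 1.02; edgeR adjusted p = 0.236), with 6.31, 12.7 and 35.4 TPM in HFD-fed and 0, 1.72 and 2.28 TPM in LFD-fed mice. Ccl5 was at 6.67, 7.19 and 27.9 TPM in HFD-fed and 0.59, 4.08 and 3.05 TPM in LFD-fed mice (log2 fold change 2.71, SE 0.70). In both, the lowest HFD value exceeded the highest LFD value on either scale. Ccl3 was at 5.28, 8.66 and 19.1 TPM in HFD-fed and 0.08, 0.52 and 8.95 TPM in LFD-fed mice. It overlapped in TPM, and its log2 fold change of 2.26 (SE 1.20) became 5.26 without LFD replicate 3.

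The 3 most abundant CC ligands had smaller log2 fold changes than the other inflammatory CC ligands. Ccl6 was at 341, 667 and 987 TPM in HFD-fed and 152, 537 and 962 TPM in LFD-fed mice, with overlapping diets (log2 fold change 0.60, SE 0.49). Ccl9 was at 204, 327 and 521 TPM in HFD-fed and 46.6, 170 and 302 TPM in LFD-fed mice (log2 fold change 1.07, SE 0.49), apart in log2 CPM and overlapping in TPM. Ccl8, a ligand of Ccr8 in the mouse, was at 91.9, 107 and 458 TPM in HFD-fed and 56.3, 727 and 291 TPM in LFD-fed mice. The highest value was in LFD replicate 2, and the log2 fold change of -0.41 (SE 0.82) became 0.61 without that mouse.

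Among the 12 macrophage markers 8 had a log2 fold change above 0, against 45.6% of all genes, with a median of 0.32. The sums of the diets overlapped. Lyz2 was the largest part of the sum in every mouse, at 1115 to 2264 TPM in HFD-fed and 252 to 2755 TPM in LFD-fed mice. Values divided by this sum therefore rest largely on that gene. Adgre1 (1.36, SE 0.55), Cd68 (1.72, SE 0.63) and Fcgr1 (2.06, SE 0.69) were higher at an unadjusted p under 0.05, and Cd163, a scavenger receptor of resident macrophages, was lower (-1.53, SE 0.39). Of all genes, 3.86% were higher and 6.62% lower at that p. When each gene's TPM was divided by the summed TPM of the 12 markers, 17 members were fully above in HFD-fed mice, against 2.18% of all genes, and 1 fully below, against 13.6%. On the log2 of this scale, over genes above 0 TPM in every mouse, 15 of 25 ligands and 9 of 14 receptors had a difference above 0, with medians of 0.27 and 0.67 compared with -0.64 over all genes.

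The interferon-induced ligands Cxcl9 and Cxcl10, which draw activated T and NK cells through Cxcr3, were higher in all HFD-fed mice in log2 CPM, and Cxcl11 overlapped. Cxcl9 was at 13.4, 30.3 and 71.0 TPM in HFD-fed and 4.14, 11.7 and 7.48 TPM in LFD-fed mice, with a log2 fold change of 2.37 (SE 0.52; edgeR adjusted p = 0.188). Cxcl10 was at 11.9, 28.2 and 75.5 TPM in HFD-fed and 1.18, 5.15 and 12.9 TPM in LFD-fed mice (log2 fold change 2.66, SE 0.71; edgeR adjusted p = 0.266). Cxcl9 was apart on both scales, and Cxcl10 in log2 CPM, with HFD replicate 1 just below LFD replicate 3 in TPM. Together they held 2.90% to 4.60% of ligand TPM in HFD-fed and 0.943% to 1.35% in LFD-fed mice. Cxcl11 stayed at 1.52 TPM or less in every mouse, with a log2 fold change of -0.58 (SE 0.92). The gene annotation lists Cxcl11 as a polymorphic pseudogene and not as protein coding. Xcl1, a C class chemokine made by NK and CD8 T cells, was at 1.42, 3.89 and 3.21 TPM in HFD-fed and 0.13, 0 and 0.56 TPM in LFD-fed mice. The estimate of 3.82 on the log2 scale (SE 0.80; edgeR adjusted p = 0.177) rested on 14, 28 and 25 reads against 1, 0 and 3 reads.

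Markers of cytotoxic lymphocytes differed in the same direction as Ccl4, Ccl5, Cxcl9, Cxcl10 and Xcl1. All 10 NK and cytotoxic marker genes were fully above in HFD-fed mice, against 6.72% of all genes. All 10 were also higher at an unadjusted p under 0.05, against 3.86% of all genes. Their median log2 fold change was 2.82, with 2.97 (SE 0.66) for the NK receptor Ncr1 and 4.08 (SE 0.81) for granzyme Gzmb. These 10 genes summed to 18.9 to 62.3 TPM in HFD-fed and 1.38 to 11.5 TPM in LFD-fed mice. Of 8 tested T cell genes 7 were above 0, against 45.6% of all genes. At an unadjusted p under 0.05, 3 T cell genes were higher (Cd3g, Cd2 and Lck), against 3.86% of all genes. Cd4, Cd8a and Cd8b1 overlapped between the diets. Trac was below 0 (-2.11, SE 1.18), with 20.8 TPM in LFD replicate 1. The 10 T cell genes summed to 10.2 to 19.6 TPM in HFD-fed and 10.4 to 22.5 TPM in LFD-fed mice, so their sums overlapped. The part of either list in the ligand values was not tested.

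Cx3cl1, or fractalkine, is anchored in the membrane of endothelial and other cells and binds Cx3cr1. It had the smallest p of the family, with 138, 215 and 260 reads in HFD-fed and 24, 37 and 73 reads in LFD-fed mice and a log2 fold change of 2.09 (SE 0.42). In TPM it was at 2.54, 6.13 and 7.12 in HFD-fed and 0.42, 1.16 and 3.50 in LFD-fed mice, and HFD replicate 1 lay below LFD replicate 3. Cxcl16, the other membrane-anchored chemokine, was at 12.9, 13.8 and 28.1 TPM in HFD-fed and 2.33, 13.3 and 14.7 TPM in LFD-fed mice (log2 fold change 1.18, SE 0.48).

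The neutrophil attractants Cxcl1, Cxcl2, Cxcl3 and Cxcl5, which share the receptor Cxcr2, were all above 0 but varied widely between mice. Cxcl2 was at 3.18, 4.21 and 19.5 TPM in HFD-fed and 0, 1.06 and 2.69 TPM in LFD-fed mice (log2 fold change 3.39, SE 1.18; edgeR adjusted p = 0.390), and it alone of the 4 had the diets apart. Cxcl1 had a log2 fold change of 2.07 (SE 1.26) and Cxcl3 of 1.75 (SE 1.35). Without HFD replicate 3 these were 0.97 and 0.23, and without LFD replicate 3 they were 3.48 and 4.12. Cxcl5 was at 18.2 TPM in LFD replicate 3 and at 0.24 TPM or less in the other LFD-fed mice, so that its log2 fold change of 1.07 (SE 1.62) became 6.11 without LFD replicate 3 and -0.10 without HFD replicate 3. The sum of 8 neutrophil marker genes was also highest in HFD replicate 3 and LFD replicate 3, at 173 and 149.9 TPM, compared with 5.38 to 37.8 TPM in the other mice. S100a8, S100a9 and Csf3r made most of these 2 sums. Of the others, Retnlg was also highest in these mice and Elane was highest in LFD replicate 2 (1.44 TPM). Ly6g, Mpo and Ngp were at 0.37 TPM or less in every mouse, and only 4 of the 8 genes were tested.

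Cxcl13, which draws B cells into follicles through Cxcr5, had the largest log2 fold change of the 7 ligands that were below 0. It was at 1.48, 3.60 and 0.43 TPM in HFD-fed and 39.6, 75.9 and 5.37 TPM in LFD-fed mice. The log2 fold change of the fit was -4.32 (SE 1.17, edgeR adjusted p = 0.270), which is 20.0-fold toward LFD-fed mice. All HFD-fed mice lay below all LFD-fed mice on either scale, and LFD replicate 3 was closest to them. Cxcl13 made up 0.280% to 10.1% of ligand TPM in LFD-fed and 0.0135% to 0.227% in HFD-fed mice. The B cell markers summed to 3.32 to 7.97 TPM in HFD-fed and 1.21 to 6.82 TPM in LFD-fed mice, and 0 of 6 tested passed an unadjusted p of 0.05. Lymph node markers Madcam1, Glycam1 and Chst4 were at 0.30 TPM or less in every mouse, while Lyve1, a gene of lymphatic vessels and resident macrophages, was at 6.42 to 20.5 TPM in HFD-fed and 30.6 to 44.3 TPM in LFD-fed mice.

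The other lymphoid tissue ligands overlapped between the diets. Cxcl12, the ligand of Cxcr4, was at 19.7, 66.0 and 70.3 TPM in HFD-fed and 20.5, 65.5 and 70.2 TPM in LFD-fed mice, nearly the same sets of values. On counts the sets were less alike, at 6.33, 7.69 and 7.34 log2 CPM in HFD-fed and 6.37, 6.93 and 6.65 in LFD-fed mice (log2 fold change 0.56, SE 0.38). Ccl19 and Ccl21a guide dendritic cells and T cells through Ccr7. Ccl19 had a log2 fold change of -1.33 (SE 0.76), which became -0.49 without LFD replicate 2. The Ccl21 copies are nearly identical, so reads cannot be assigned to a copy with certainty, and summed over Ccl21a, Ccl21b and Ccl21c they had 5, 248 and 157 reads in HFD-fed and 16, 105 and 21 reads in LFD-fed mice, with the diets overlapping.

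The eotaxins Ccl11 and Ccl24, which draw eosinophils through Ccr3, were lower in HFD-fed mice in TPM. Ccl11 was at 12.3, 14.3 and 17.3 TPM in HFD-fed and 28.3, 60.4 and 20.8 TPM in LFD-fed mice (log2 fold change -1.11, SE 0.44; edgeR adjusted p = 0.454), apart in TPM and overlapping in log2 CPM. Ccl24 was at 4.70, 6.10 and 2.41 TPM in HFD-fed and 7.10, 8.66 and 14.9 TPM in LFD-fed mice (log2 fold change -1.16, SE 0.52), apart on both scales. Cxcl14 had a log2 fold change of -0.97 (SE 0.46), which became -0.45 without LFD replicate 2. Ccl22, Ccl25 and the tested copy of Ccl27a overlapped, with log2 fold changes of 1.31 (SE 0.81), 0.13 (SE 0.33) and 0.47 (SE 0.51). The markers of fibroblasts, which are known to make Ccl11, had 0 of 8 genes above 0, against 45.6% of all genes, and a median of -1.29. Their sums were 2764 to 4803 TPM in HFD-fed and 1780 to 26420 TPM in LFD-fed mice, and their part was not tested.

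**Figure D3:**
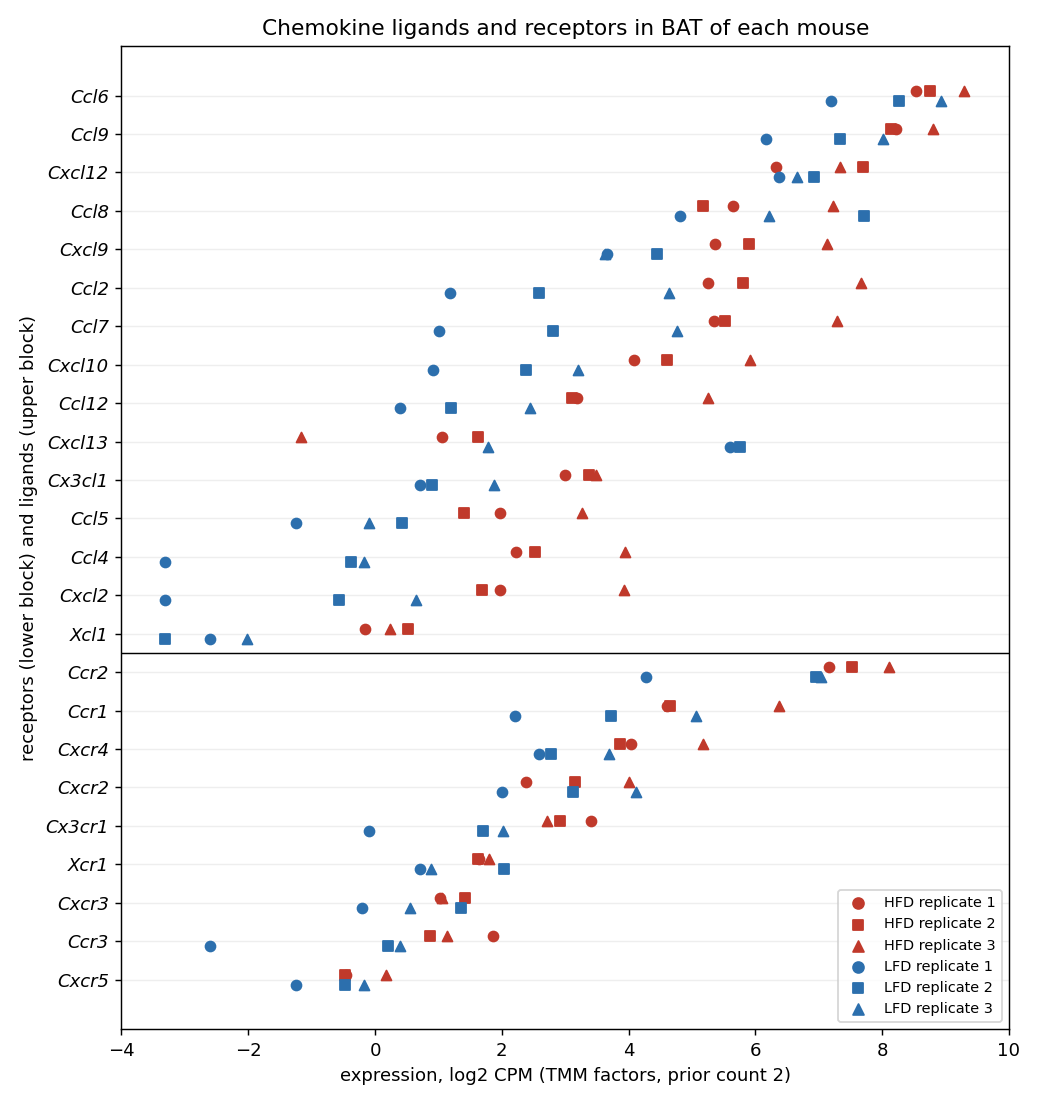
Log2 CPM of 15 ligands and 9 receptors in each mouse, ordered by mean, with HFD in red, LFD in blue and a symbol for each replicate number. Cxcl13 is the gene whose red points all lie left of the blue ones, and LFD replicate 1 (blue circle) is the leftmost point of most receptors.

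The log2 fold changes of the receptors spanned a narrower range than those of the ligands. Ccr2, the monocyte receptor of Ccl2, Ccl7 and Ccl12, was at 34.6, 70.0 and 109 TPM in HFD-fed and 4.96, 54.4 and 64.6 TPM in LFD-fed mice (log2 fold change 1.14, SE 0.68; edgeR adjusted p = 0.639). It was apart in log2 CPM only narrowly, with HFD replicate 1 at 7.16 and LFD replicate 3 at 7.03, and it overlapped in TPM. Without LFD replicate 1 its log2 fold change was 0.65. Ccr1 was at 7.10, 11.97 and 40.4 TPM in HFD-fed and 1.45, 7.17 and 20.8 TPM in LFD-fed mice (log2 fold change 1.37, SE 0.80), with the diets overlapping. Its log2 fold change was 0.55 without HFD replicate 3 and 2.32 without LFD replicate 3.

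Cxcr4 and Cx3cr1 were the receptors higher at an unadjusted p under 0.05. Cxcr4 was at 10.7, 16.1 and 37.5 TPM in HFD-fed and 4.87, 8.07 and 17.9 TPM in LFD-fed mice (log2 fold change 1.39, SE 0.47; edgeR adjusted p = 0.383), and 0.86 without HFD replicate 3. Cx3cr1, found on monocytes and tissue macrophages, was at 2.51, 2.85 and 2.66 TPM in HFD-fed and 0.22, 1.35 and 1.91 TPM in LFD-fed mice (log2 fold change 1.61, SE 0.57). Its HFD values were within a narrow range and all above the LFD values. Ccr3 (log2 fold change 1.62, SE 0.82) and Ccr7 (1.77, SE 0.75) were also apart on both scales, at 1.82 TPM or less in every mouse.

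Cxcr3, Xcr1 and Cxcr5 overlapped between the diets. Cxcr3, found on activated T and NK cells, was at 0.94, 2.04 and 1.60 TPM in HFD-fed and 0.41, 2.26 and 1.41 TPM in LFD-fed mice (log2 fold change 0.48, SE 0.49). Xcr1, a receptor of cross-presenting dendritic cells, was at 0.55, 0.88 and 1.04 TPM and at 0.31, 1.37 and 0.68 TPM (log2 fold change 0.36, SE 0.45). Cxcr5 was at 0.20, 0.31 and 0.54 TPM and at 0.11, 0.37 and 0.53 TPM (log2 fold change 0.39, SE 0.49), on at most 24 reads in a mouse. For the neutrophil receptor Cxcr2, values were 1.38, 3.86 and 7.23 TPM and 1.16, 4.37 and 9.95 TPM, with a log2 fold change of 0.00 (SE 0.62) whose sign changed with the mouse left out.

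Ligands were then set beside their receptors. Of 35 ligand and receptor pairs of textbook knowledge, 29 had both genes tested; many pairs share a gene. Both log2 fold changes were above 0 in 24 pairs, of which the 4 with Cxcr2 rest on a receptor value of 0.00 whose sign changed with the mouse left out, and in 5 the ligand was below and the receptor above 0, namely Ccl11 and Ccl24 with Ccr3, Ccl19 with Ccr7, Cxcl11 with Cxcr3 and Cxcl13 with Cxcr5. No tested receptor had a log2 fold change below 0, so these counts only restate the sign of the ligands. Some ligands occur in several pairs, and of all single genes 45.6% were above 0. The ligand had the larger log2 fold change in 18 pairs. In 8 pairs ligand and receptor were both apart in log2 CPM, among them Ccl2, Ccl7 and Ccl12 with Ccr2 and Cx3cl1 with Cx3cr1. In TPM, however, Ccl2, Ccl7, Ccl12, Ccr2 and Cx3cl1 each overlapped between the diets. Of all genes tested, 6.72% were fully above in log2 CPM, which is a share of single genes and not of pairs. In another 8 pairs the ligand was apart and the receptor overlapped, such as Cxcl9 and Cxcl10 with Cxcr3, Xcl1 with Xcr1, Cxcl2 with Cxcr2 and Cxcl16 with Cxcr6. In 4 pairs the receptor was apart above and the ligand overlapped.

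**Figure D4:**
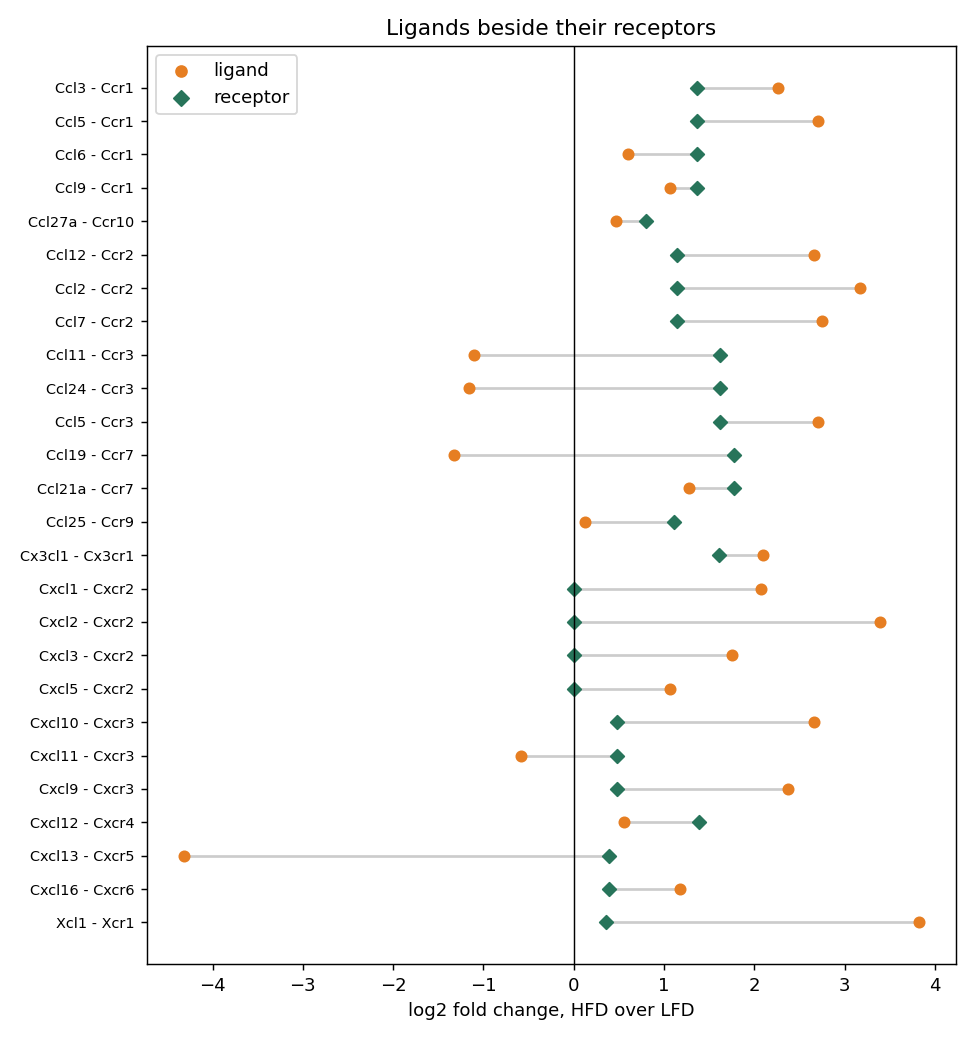
Log2 fold change of HFD over LFD for the ligand (circle) and the receptor (diamond) of 26 pairs with both genes tested. The ligand lies right of the receptor in 15 pairs, and for Cxcl13 and Cxcr5 the distance is largest, from -4.32 to 0.39.

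Many of the genes lie in clusters on the genome (GRCm38). Of 14 on chromosome 11, 13 were tested and 9 had all HFD-fed mice above (6.72% of all genes did), among them Ccl2, Ccl7, Ccl12, Ccl5, Ccl9, Ccl3 and Ccl4. On chromosome 5 lie 11 CXC and CC ligands, of which 9 were tested: Cxcl2, Cxcl9 and Cxcl10 were fully above and Cxcl13 and Ccl24 fully below (9.23% of all genes). Of 11 receptors on chromosome 9, 9 were tested and 4 were fully above.

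Promoter windows of 250 bases before the transcription start, from RefSeq (GRCm38.p6), were found for 41 of the 57 symbols, in 48 windows. They were searched on both strands for an NF-kB site (GGG and TTTCC with 2 bases between), an interferon response element (GAAA and GAAA with 2 bases between) and a gamma activated site (TTCNNNGAA, N being any base). The NF-kB letters occurred in 5 of 33 ligand windows (15.2%; Ccl9, Ccl20, Cxcl1, Cxcl2 and Cxcl3) and in 6.67% of 15 receptor windows (Ccr3), and in 1.41% of 32851 windows of all genes. The interferon element occurred in 9.09% of ligand windows (Ccl19, Cxcl10 and Cxcl14), no receptor window and 2.98% of all windows. The gamma activated site occurred in 6.06% of ligand windows (Ccl17 and Cxcl14), 6.67% of receptor windows (Ccr6) and 7.02% of all windows. Related genes share sequence, so their windows are not independent, and a match is a description of letters only. Each search used a single form of its site, so a window without a match may hold another form. Symbols without a window, among them Ccl2, Ccl4, Ccl5, Ccl7, Ccl11, Ccl24, Cxcl5 and Cxcl16, were not searched.

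The windows of Cxcl1, Cxcl2 and Cxcl3 are shown because these neighbouring genes hold the NF-kB letters at like distances from the start; Cxcl15, of the same role, has a window without a match. Those of Cxcl10 and its neighbour Cxcl9, and of Cxcl13, are shown since these ligands differed most between the diets in their roles. Cxcl14, fully below in TPM, holds 2 matches and is not shown. Capitals mark the matched letters, and each window runs 5′ to 3′ to the base before the start. On chromosome 5, Cxcl1 (chr5:90890995-90891244, plus strand) holds the NF-kB letters at 89 to 80 and 71 to 62 bases before the start, Cxcl2 (chr5:90903649-90903898, plus strand) at 97 to 88 and 78 to 69, and Cxcl3 (chr5:90785851-90786100, plus strand) at 73 to 64. Cxcl10 (chr5:92348890-92349139, minus strand) holds the interferon element at 213 to 204 bases before the start. Cxcl9 (chr5:92328080-92328329, minus strand) and Cxcl13 (chr5:95956689-95956938, plus strand) hold none of the searched letters.
Cxcl1: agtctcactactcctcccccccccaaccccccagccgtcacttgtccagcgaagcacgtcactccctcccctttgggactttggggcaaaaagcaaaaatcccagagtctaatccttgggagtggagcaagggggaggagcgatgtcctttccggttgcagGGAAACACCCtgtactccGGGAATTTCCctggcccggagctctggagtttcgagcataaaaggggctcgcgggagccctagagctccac
Cxcl2: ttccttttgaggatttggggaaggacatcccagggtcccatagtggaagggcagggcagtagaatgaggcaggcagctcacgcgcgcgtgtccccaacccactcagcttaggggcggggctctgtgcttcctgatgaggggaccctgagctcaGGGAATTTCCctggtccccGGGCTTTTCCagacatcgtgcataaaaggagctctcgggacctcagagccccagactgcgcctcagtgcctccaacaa
Cxcl3: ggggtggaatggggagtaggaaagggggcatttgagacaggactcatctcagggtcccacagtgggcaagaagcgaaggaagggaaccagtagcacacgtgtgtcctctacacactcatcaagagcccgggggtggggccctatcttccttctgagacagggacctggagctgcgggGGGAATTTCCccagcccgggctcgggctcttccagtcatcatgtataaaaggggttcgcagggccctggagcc
Cxcl10: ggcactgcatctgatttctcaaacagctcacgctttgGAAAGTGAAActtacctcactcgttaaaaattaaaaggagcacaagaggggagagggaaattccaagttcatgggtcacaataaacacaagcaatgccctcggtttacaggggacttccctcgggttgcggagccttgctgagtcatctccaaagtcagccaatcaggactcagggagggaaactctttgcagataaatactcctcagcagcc
Cxcl9: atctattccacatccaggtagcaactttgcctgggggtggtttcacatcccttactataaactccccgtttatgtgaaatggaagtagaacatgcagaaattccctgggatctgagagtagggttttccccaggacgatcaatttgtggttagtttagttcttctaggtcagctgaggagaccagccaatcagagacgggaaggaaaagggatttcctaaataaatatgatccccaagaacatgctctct
Cxcl13: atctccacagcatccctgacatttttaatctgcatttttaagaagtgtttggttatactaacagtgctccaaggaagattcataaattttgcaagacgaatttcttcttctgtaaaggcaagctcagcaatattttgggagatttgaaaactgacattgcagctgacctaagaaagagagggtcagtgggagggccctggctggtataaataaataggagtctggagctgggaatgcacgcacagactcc

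Other genes of the chemokine system, taken from lists chosen with earlier results known, were counted in the same fit. Of 10 tested genes of the system outside the name pattern, 1 was higher and 3 lower at an unadjusted p under 0.05. The shares of all genes were 3.86% higher and 6.62% lower. Higher was Ccrl2 (log2 fold change 1.52, SE 0.39), a non-signalling receptor. Lower were the scavenging receptors Ackr1 (-1.69, SE 0.44) and Ackr2 (-2.23, SE 0.51), which bind inflammatory chemokines without signalling through G proteins, and the chemerin receptor Cmklr1 (-1.12, SE 0.34). In all 4 genes the diets were apart in log2 CPM, where 6.72% of all genes were fully above and 9.23% fully below. Pf4, an abundant chemokine also known as Cxcl4, was at 149.6 to 459 TPM in HFD-fed and 56.2 to 452 TPM in LFD-fed mice.

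Of 19 genes of receptor signalling, 16 were above 0, against 45.6% of all genes, with a median of 0.45. At an unadjusted p under 0.05, 2 were higher, against 3.86% of all genes. Rgs1, which ends G protein signalling in leukocytes, was at 13.9, 53.8 and 46.9 TPM in HFD-fed and 0.12, 1.64 and 3.12 TPM in LFD-fed mice (log2 fold change 4.61, SE 0.75; edgeR adjusted p = 0.170). Rgs2 had a log2 fold change of 0.90 (SE 0.33). The 6 G protein subunits in the list overlapped between the diets, from -1.43 (SE 0.86) for Gnai1 to 0.59 (SE 0.35) for Gng2.

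Of 14 tested genes among the inducers of chemokines, 12 were above 0, against 45.6% of all genes, with a median of 0.62. Tnf (2.95, SE 0.91), Ltb (1.68, SE 0.52) and Irf7 (1.29, SE 0.50) were higher at an unadjusted p under 0.05, against 3.86% of all genes. Ifng, the gene of interferon gamma, was at 0.04, 0.39 and 0.25 TPM in HFD-fed and 0, 0.13 and 0 TPM in LFD-fed mice and had too few reads to be tested. Irf1 (0.85, SE 0.36), which acts in the interferon response, did not pass an unadjusted p of 0.05.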

How the data were processed

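BAT of 3 HFD-fed and 3 LFD-fed mice was analysed; groups and replicate numbers came from the labels. Per the labels and the methods, the authors trimmed single-end reads of 75 bases with Trimmomatic 0.36 and quantified them with RSEM 1.3.0 on GRCm38.p4 with Ensembl 84, and tested genes with DESeq2 1.10.1. For each mouse the authors deposited expected counts, which are estimated and share reads between similar genes, and TPM values, which are scaled for length to a fixed total. RSEM's posterior standard deviation of each count, also deposited, was used only to describe copies.

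Expected counts were rounded and tested in R 4.3.3 with edgeR 4.0.16 (quasi-likelihood test, TMM factors, filterByExpr, no robust fitting, Benjamini-Hochberg adjustment over all 17668 genes; common dispersion 0.201), after the script was tested on simulated data. The SE was the log2 fold change divided by the root of F. Log2 CPM used a prior count of 2. Library totals were 17156991 to 21603487, so a gene with few reads has counting error beside the spread between mice, and replicates are separate mice. Mitochondrial genes took 3.87% to 22.7% of counts. No library was repeated, since the chi-square between mice of a diet, divided by its degrees of freedom, was 71.7 to 558.

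The members and gene lists were chosen with earlier results of these data known. Named with values in every mouse were the chemokines the study names and their receptors, the 6 ligands and 6 receptors of highest TPM and the 10 largest log2 fold changes with diets apart. For the replicate block, same-numbered mice were taken as pairs, since their deviations from the diet means correlated across genes at r = 0.498, 0.229 and 0.522. The labels do not say that these mice were matched. The pairing was thus chosen on the values that the block then tested. Alternatives were DESeq2 1.42.0, RLE size factors, at least 10 counts in every mouse, no low-count filter, the replicate block, no mitochondrial genes, a prior count of 0.5, log2(TPM + 1), and each mouse left out; levels relative to macrophage markers and copies summed were added after the data were seen. Gene positions are those of GENCODE M21 (GRCm38), in which all 63 identifiers were found, and protein sequences were not used here. Values of 2 genes are not reported here; they remain in the counts and sums but not in the figures of single genes and pairs.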

Additional observations from a re-analysis of the deposited data

How the results depend on the processing

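DESeq2 called 6 members higher and 1 lower where edgeR called 0 and 0, and RLE size factors, the count filters, the replicate block and the fit without mitochondrial genes also called 0. With the replicate block, whose pairing was chosen on these same values, 23 members were higher at an unadjusted p under 0.05, compared with 13 without it. A minimum of 10 counts in every mouse, which tests fewer genes, left 1 lower at that p, 12 fully above and 1 fully below. On log2(TPM + 1), 8 were fully above and 4 fully below, and relative to macrophage markers, an alternative chosen after the data were seen, 1 was fully below. The cause was not tested.

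With each mouse left out in turn, members called remained 0 in both directions, those at an unadjusted p under 0.05 were 8 to 19 higher (8 without HFD replicate 3 and without LFD replicate 2) and 1 to 3 lower (1 without HFD replicate 2, HFD replicate 3 or LFD replicate 2), and those with diets apart were 19 to 25 above and 2 to 4 below (4 without LFD replicate 3), counts that can hardly fall when a mouse is left out and so say nothing about stability. Median log2 fold changes were 0.98 to 1.65 for ligands and 0.76 to 1.3 for receptors. The log2 ratio of the summed level was -0.18 to 1.02 for ligands, reversed without LFD replicate 1, and 0.20 to 1.77 for receptors. Ccl8 ranged from -1.27 to 0.61 (without LFD replicate 2) and Cxcr2 from -0.51 to 0.67, with -0.39 without LFD replicate 1 and -0.09 without LFD replicate 2, and it was -0.01 without mitochondrial genes. Depth limited the comparison to the 44 members that passed the count filter.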
